A study of Mus musculus with 25 samples.

Results

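Chemokine transcripts were measured in the embryonic mesenchymes of the mouse mammary gland, the salivary gland and the ventral skin. The genes were 8 that stromal cells are known to transcribe, namely Cxcl1, Cxcl12, Cxcl13, Cxcl14, Ccl2, Ccl7, Ccl11 and Cx3cl1. The choice was made with earlier results of these data known. The members were found by symbol among the 35880 genes of the count table. All 8 passed the expression filter that kept 17657 genes for testing. Cxcl12, Cxcl13 and Ccl11 were highest in the salivary gland mesenchyme and lowest in the ventral skin mesenchyme. Cxcl14 was instead highest in E13.5 mammary mesenchyme and near 0 in the salivary gland mesenchyme. Ccl2 and Ccl7 were also lowest in the salivary gland mesenchyme but had their highest mean in E16.5 mammary mesenchyme.

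RNA-Seq was done on 25 pools of C57Bl/6JOlaHsd mesenchyme, 5 for each of 5 tissues. These were the precursor of the mammary fat pad, taken at E16.5 (FP), the mesenchyme around the mammary sprout at E16.5 (E16.5 MM), that around the mammary bud at E13.5 (E13.5 MM), ventral skin mesenchyme outside the mammary region taken at E13.5 (VM) and salivary gland mesenchyme taken at E13.5 (SM). No group carried a mutation or a drug treatment. Salivary glands and flank skins with mammary rudiments went through the same enzyme treatment. Mammary epithelium was then taken out of both MM tissues with needles, salivary epithelium was removed from SM, FP was microdissected and VM was collected away from the gland. A pool held tissue of 2 to 3 embryos from 1 litter. With 3 litters behind the 5 pools of each tissue, some pools had a litter in common, and p-values measure the spread between pools. E16.5 pools are labelled female whereas no sex is given at E13.5, so stage and sex cannot be told apart in comparisons between stages.

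Chemokines are small secreted proteins that steer migrating cells through receptors coupled to G proteins, and they are named after the spacing of their first cysteines. CC chemokines carry the pair side by side, CXC chemokines have 1 residue between them and CX3C chemokines have 3. Cxcl12 acts through Cxcr4 and is bound by the scavenger Ackr3, Cxcl13 draws B cells through Cxcr5, and Cxcl1 draws neutrophils through Cxcr2. Ccl2 and Ccl7 draw monocytes through Ccr2, Ccl11 (eotaxin) draws eosinophils through Ccr3, and Cx3cl1 is a membrane-anchored ligand of Cx3cr1. Cxcl14 is a chemokine of skin and other epithelia and stroma whose receptor is less settled. In the postnatal mammary gland, Ccl11 is known for its part in recruiting eosinophils.

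The cysteine codons that give the classes their names are shown because they separate the 3 kinds of member at the level of sequence. Each stretch runs from 12 bases before the first cysteine codon to 18 bases after the second, 5′ to 3′ in the coding direction, read from GENCODE M21 transcripts (GRCm38) with both cysteine codons in capitals. All stretches lie in coding exons, and that of Cxcl14 spans 2 exons, so its coordinates include an intron.
Cxcl1, chr5:90891484-90891522, plus strand: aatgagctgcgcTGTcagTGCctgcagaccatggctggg
Cxcl12, chr6:117171496-117171534, plus strand: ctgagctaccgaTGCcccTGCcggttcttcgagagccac
Cxcl13, chr5:95958652-95958690, plus strand: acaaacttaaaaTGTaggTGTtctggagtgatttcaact
Cxcl14, chr13:56295897-56296113, minus strand: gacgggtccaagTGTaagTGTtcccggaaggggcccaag
Ccl2, chr11:82036494-82036529, plus strand: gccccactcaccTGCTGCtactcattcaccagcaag
Ccl7, chr11:82046526-82046561, plus strand: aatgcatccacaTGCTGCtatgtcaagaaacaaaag
Ccl11, chr11:82061684-82061719, plus strand: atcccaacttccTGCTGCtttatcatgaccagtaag
Cx3cl1, chr8:94778039-94778083, plus strand: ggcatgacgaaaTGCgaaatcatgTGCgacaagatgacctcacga
In Ccl2, Ccl7 and Ccl11 the capitals are adjacent and read the same 6 letters, in the 4 Cxcl genes 1 codon lies between them, and in Cx3cl1 3 codons do. Ccl2, Ccl7 and Ccl11 lie next to each other on the plus strand of chromosome 11, at chr11:82035571-82037453, chr11:82045712-82047525 and chr11:82057823-82062955. Reads of such relatives can be divided between them where sequence is shared, so runs of 31 bases were compared with all other annotated transcripts on both strands. None of the runs of Cxcl1, Cxcl13, Cxcl14, Ccl2, Ccl7 or Cx3cl1 occurred in another gene. Cxcl12 shared 9 of 8204 runs (0.11%) with genes that are not chemokines, and Ccl11 shared 1 of 1052. On the minus strand an unnamed gene model, Gm17268, overlaps Ccl2 and was at 0 counts in every pool.

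The bases before the transcription start are shown for Cxcl12 and Cxcl13, both highest in SM and lowest in VM, and for Cxcl14, which was lowest in SM. The set of promoters used here held entries for 5 of the 8 genes. The sequences are from RefSeq (GRCm38.p6). They end just before the first annotated transcript start, with matches to TATAAA in capitals.
Cxcl12, chr6:117168285-117168534, plus strand: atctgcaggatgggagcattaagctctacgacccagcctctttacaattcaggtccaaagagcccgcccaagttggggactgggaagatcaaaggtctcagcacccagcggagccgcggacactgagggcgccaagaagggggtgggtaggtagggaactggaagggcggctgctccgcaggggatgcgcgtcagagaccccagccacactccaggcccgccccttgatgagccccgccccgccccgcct
Cxcl13, chr5:95956689-95956938, plus strand: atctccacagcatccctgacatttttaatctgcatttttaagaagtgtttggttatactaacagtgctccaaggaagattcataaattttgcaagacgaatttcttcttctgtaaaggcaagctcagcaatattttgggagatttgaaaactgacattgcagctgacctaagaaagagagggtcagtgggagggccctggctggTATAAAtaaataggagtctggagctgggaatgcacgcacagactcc
Cxcl14, chr13:56296552-56296801, minus strand: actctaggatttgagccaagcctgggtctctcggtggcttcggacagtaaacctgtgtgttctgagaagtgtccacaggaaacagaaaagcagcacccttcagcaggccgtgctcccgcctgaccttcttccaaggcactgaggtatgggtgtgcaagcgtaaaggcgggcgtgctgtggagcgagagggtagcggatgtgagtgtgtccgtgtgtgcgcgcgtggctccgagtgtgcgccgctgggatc
Both strands were searched for TATAAA, the core of the TATA box. Cxcl13 held 1 TATAAA, starting 46 bases before the end of its stretch, and the 250 bases of Cxcl12 and Cxcl14 held none. In the 250 bases before the start of 32851 promoters, TATAAA was found in 12.4%. Cxcl12 and Cxcl13 therefore did not share these letters in these windows.

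The total counts per pool ran from 20678150 to 34448304 with a median of 26370369, and no library was identical to another. A normalized count below is a count scaled with TMM factors to the mean library size. A difference was called where the adjusted p was below 0.05, the log2 fold change reached 0.58 in either direction and the higher tissue averaged over 50 normalized counts. In every pool the summed level of 11 fibroblast and mesenchyme markers, at 14360 to 49398 CPM (counts scaled to the library total), was far above that of 8 epithelial markers, at 3.01 to 107 CPM. By tissue the fibroblast sum was 23224 to 27677 CPM in FP, 43602 to 49398 in E16.5 MM, 16880 to 21508 for E13.5 MM, 14805 to 18892 in VM and 14360 to 16662 in SM. The pools also held other cells. Skeletal muscle markers summed to 696 to 7489 CPM in FP, 286 to 1063 in E16.5 MM and at most 415 in the E13.5 tissues. Adipocyte markers summed to 653 to 1325 CPM in FP and at most 184 elsewhere. Erythroid markers were at 3701 to 7533 CPM in FP and 694 to 1288 in SM. The summed level of 12 macrophage and leukocyte markers was 742 to 942 CPM in FP, 722 to 822 CPM in E16.5 MM, 360.2 to 426 CPM for E13.5 MM, 312 to 381 CPM in VM and 82.5 to 116 CPM in SM. That of 8 peripheral neuron markers was 299 to 371 CPM in SM and at most 25.8 CPM in the other tissues, with no marker of either list at 0 in any tissue. In bulk samples, fewer cells of a type and less RNA per cell cannot be told apart.

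**Figure D1:**
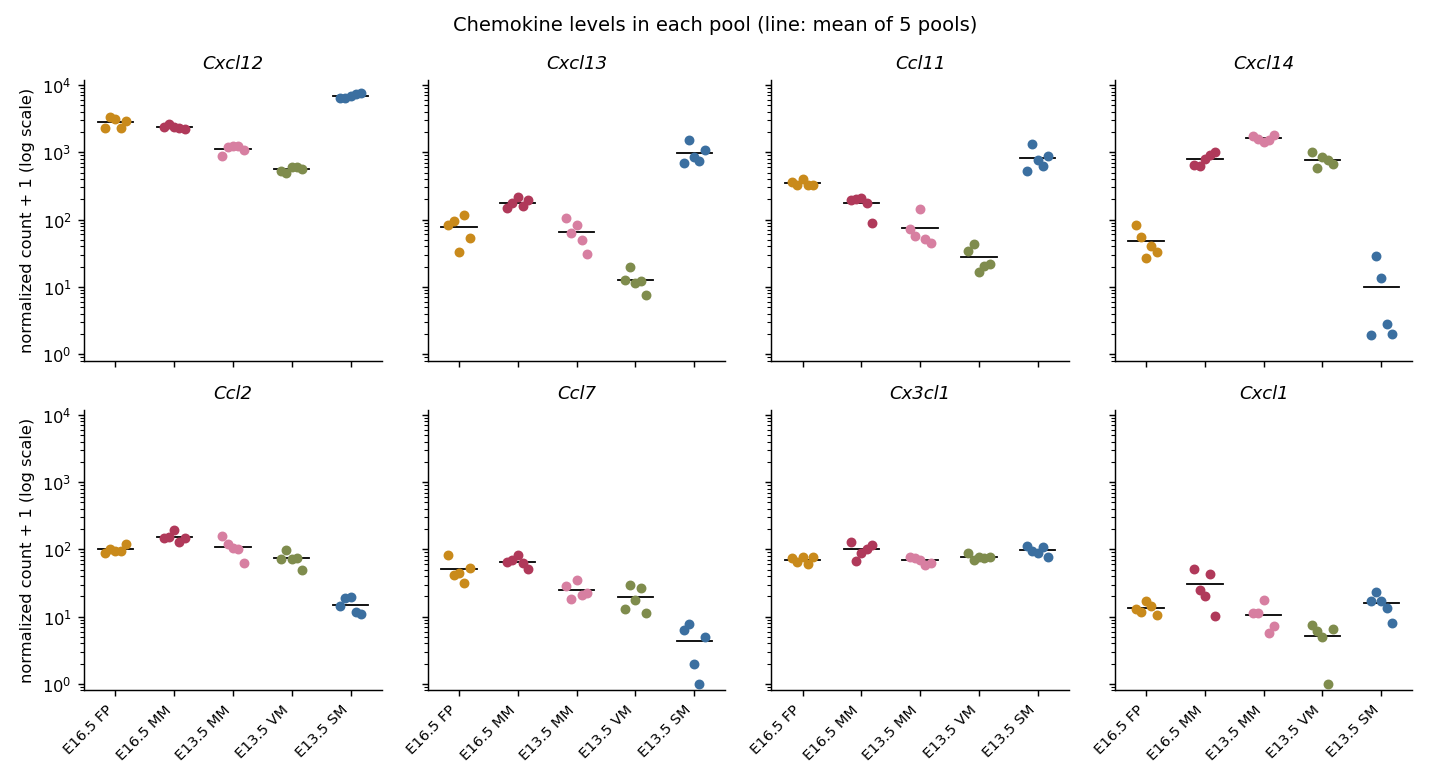
Normalized count + 1 on a log axis of the 8 chemokine genes in each of 25 pools, with 1 point per pool and a line at the mean of the 5 pools of a tissue. Cxcl12, Cxcl13 and Ccl11 peak in SM with means of 6949, 976 and 826, and Cxcl14 peaks in E13.5 MM with a mean of 1607.

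Cxcl12 (chr6:117168535-117181367), the ligand of Cxcr4, had 2312, 3392, 3143, 2258 and 2891 normalized counts in FP, 2400.3, 2595, 2373, 2273 and 2255 in E16.5 MM, 883, 1213, 1239, 1230.0 and 1064 for E13.5 MM, 534, 486, 613, 602 and 572 in VM, and 6333, 6466, 6952, 7478 and 7518 in SM. The pools of FP and E16.5 MM overlapped, and all other pairs of tissues were separated without overlap. E13.5 MM was higher than VM by 1.0 ± 0.11 on the log2 scale (SE; edgeR adjusted p = 1.23e-07), and E16.5 MM was above E13.5 MM by 1.08 ± 0.11 (adjusted p = 7.21e-09). Against SM, the log2 fold changes of Cxcl12 were -1.31 in FP, -1.55 in E16.5 MM, -2.62 for E13.5 MM and -3.63 in VM. The last is a 12.4-fold difference between mesenchymes of the same embryonic day. Between FP and E16.5 MM the fitted difference was 0.23 ± 0.10 and did not pass (adjusted p = 0.085), so these neighbours in the order are not separated beyond their spread.

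Cxcl13 (chr5:95956951-95961068), known as a B cell attractant, had the largest fold between its highest and lowest tissue mean of these genes after Cxcl14. It had 82.1, 94.1, 32.2, 115 and 52.8 normalized counts in FP, 149, 176, 213, 161 and 192 in E16.5 MM, 104, 62.1, 80.9, 49.3 and 30 for E13.5 MM, 11.8, 18.7, 10.2, 11.4 and 6.57 in VM, and 681, 1532, 857, 736 and 1071 in SM. The fat pad precursor overlapped with E13.5 MM, while every other pair of tissues did not overlap. In VM it was 83.2-fold lower than in SM (log2 fold change -6.38 ± 0.38, adjusted p = 5.38e-13). E13.5 MM exceeded VM by 2.46 ± 0.38 (adjusted p = 3.59e-05), a call that was lost, as was that of FP against VM, when the average of both tissues had to pass the count threshold. Cxcl13 was lower in FP than in E16.5 MM, with a log2 fold change of -1.23 ± 0.30 (adjusted p = 0.00234).

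Ccl11 (eotaxin) passed the call in all 10 comparisons of tissues, the only member to do so, although that between E13.5 MM and VM was lost when the average of both tissues had to pass the count threshold. Its normalized counts were 361, 322, 398, 330.3 and 329 in FP, 194, 201, 210.1, 174 and 87.5 in E16.5 MM, 71.1, 55.4, 142, 50.9 and 44.1 for E13.5 MM, 33.3, 42.5, 15.7, 19.2 and 20.6 in VM, and 534, 1336, 764, 615 and 882 in SM. Replicate 3 of E13.5 MM, at 142, stood above its group and overlapped with E16.5 MM, whose replicate 5 had 87.5. The other pairs of tissues did not overlap. Ccl11 was the member that was higher in FP than in E16.5 MM and passed (1.01 ± 0.29, adjusted p = 0.00939). It was 2.80-fold higher in E13.5 MM than in VM (1.48 ± 0.35, adjusted p = 0.00389) and 31.8-fold lower in VM than in SM (-4.99 ± 0.35, adjusted p = 1.65e-11). Among the 5 pools of SM, Cxcl13 and Ccl11 had the same order, with replicate 2 highest and replicate 1 lowest in both.

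Cxcl14 (chr13:56288643-56296551, minus strand) had its highest levels in the mammary and skin mesenchymes. It had 81.0, 53.5, 25.5, 39.3 and 31.7 normalized counts in FP, 640.5, 617, 781, 896 and 1011 in E16.5 MM, 1768, 1576, 1399, 1515 and 1777 for E13.5 MM, 1012, 590.2, 861, 760.2 and 669.8 in VM, and 0.896, 27.8, 12.5, 1.80 and 0.993 in SM. Every E13.5 MM pool lay above every pool of the other tissues, and the pools of E16.5 MM and VM overlapped. The step between the 2 compartments of the E16.5 mammary region was large. Cxcl14 was 16.9-fold lower in FP than in E16.5 MM (-4.08 ± 0.36, adjusted p = 7.21e-09). The make-up of these tissues differed too. Of 11 fibroblast and mesenchyme markers, 9 were called lower in FP and 0 higher, at a median log2 fold change of -1.18. All 8 skeletal muscle and all 5 adipocyte markers were called higher in FP, at medians of 3.0 and 2.87. The part of these cells in the Cxcl14 difference was not tested. Cxcl14 fell by 1.02 ± 0.30 on the log2 scale in E16.5 MM against E13.5 MM (adjusted p = 0.00665), the stages between which Cxcl12, Cxcl13 and Ccl11 rose. It was higher in E13.5 MM than in VM by 1.04 ± 0.30 (adjusted p = 0.0169), a call that the Wald test of DESeq2 did not make (adjusted p = 0.0738).

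The raw counts of Cxcl14 in SM were 1, 29, 13, 2 and 1, so that the fold against this tissue rests on replicates 2 and 3. E13.5 MM was higher than SM by 7.51 ± 0.44 on the log2 scale (adjusted p = 1.89e-12), E16.5 MM by 6.49 and VM by 6.47. Without replicate 2 of SM these differences were 8.61, 7.59 and 7.56, and without replicates 2 and 3, a setting chosen after seeing the data, they were 10.2, 9.2 and 9.17. The level in FP was also above that in SM (2.41 ± 0.50, adjusted p = 0.000185), but its mean of 46.2 was under the 50 that a call needs, and its lowest pool overlapped with the highest of SM. Without replicate 3 or replicate 5 of FP the mean rose past 50 and the difference was called at 2.56 and 2.54. The summed epithelial markers, given because Cxcl14 is also a gene of epithelia, were 5.91 to 42.8 CPM in FP, 14.4 to 107 CPM in E16.5 MM, 4.09 to 15.3 CPM for E13.5 MM, 3.01 to 5.08 CPM in VM and 19.6 to 28.0 CPM in SM. Their part in the Cxcl14 levels was not tested.

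Ccl2 (chr11:82035571-82037453), the main monocyte attractant of the CC class, had 86.6, 101, 95.2, 93.2 and 118 normalized counts in FP, 146, 152, 196, 127 and 149 in E16.5 MM, 155, 119, 103, 100.1 and 61.8 for E13.5 MM, 72.0, 98.5, 72.1, 73.5 and 48.8 in VM, and 13.4, 18.2, 18.3, 10.8 and 9.93 in SM. Every SM pool lay below every pool of the other tissues. E16.5 MM exceeded SM by 3.44 ± 0.24 on the log2 scale (adjusted p = 3.94e-12), and the other 3 tissues exceeded it by 2.36 to 2.92. The call of VM against SM was lost with the count threshold on the average of both tissues. Ccl2 was lower in FP than in E16.5 MM by a log2 fold change of -0.64 ± 0.21 (adjusted p = 0.0194), a call lost without replicate 3 of E16.5 MM (-0.54, adjusted p = 0.0602). It was higher in E16.5 MM than in VM by 1.07 ± 0.21 (adjusted p = 0.000126). The difference of 0.56 ± 0.21 between E13.5 MM and VM did not pass (adjusted p = 0.0741), but it was called without replicate 5 of E13.5 MM (0.72) or replicate 2 of VM (0.69). That between E16.5 MM and E13.5 MM, at 0.51 ± 0.21, was likewise called without replicate 1 of E13.5 MM (0.69) or replicate 4 of E16.5 MM (0.60).

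Ccl7, which lies beside Ccl2 and shares its receptor Ccr2, was at a lower level and, like Ccl2, had its highest mean in E16.5 MM and its lowest in SM. FP came after E16.5 MM for Ccl7, and E13.5 MM did for Ccl2. Its normalized counts were 81.0, 40.6, 42.9, 31.1 and 52.8 in FP, 64.2, 69.5, 80.5, 61.2 and 49.3 in E16.5 MM, 27.1, 17.2, 34.1, 20.3 and 21.2 for E13.5 MM, 11.8, 29.0, 16.46, 25.4 and 10.3 in VM, and 5.38, 6.70, 0.962, 0 and 3.97 in SM. With the count threshold on the average of both compared tissues, none of the 3 calls of Ccl7, all of E16.5 MM against an E13.5 tissue, was kept. Ccl7 was 2.70-fold higher in E16.5 MM relative to E13.5 MM (1.43 ± 0.39, adjusted p = 0.00363) and 18.5-fold higher than in SM (4.21 ± 0.47, adjusted p = 2.2e-08). In FP the mean was 49.7, just under the 50 that a call needs, and the differences of 1.05, 1.41 and 3.82 against E13.5 MM, VM and SM were not called although their adjusted p-values were 0.0257, 0.00363 and 8.48e-08. All of them were called without replicate 2, 3 or 4 of FP, with ranges of 1.11 to 1.19, 1.48 to 1.56 and 3.89 to 3.97. That against E13.5 MM was also called without replicate 1 of E13.5 MM (1.10), and that against VM without replicate 1 of VM (1.31).

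Macrophage and leukocyte markers moved with Ccl2 in some comparisons and not in others, and with Ccl7 in those given here. Of the 12 markers, 12 were called higher in E16.5 MM than in SM and 11 higher in E16.5 MM relative to E13.5 MM, and none was called by edgeR or DESeq2 between E13.5 MM and VM or between FP and E16.5 MM, where 1 marker each had an unadjusted p under 0.05 in edgeR. In FP, 11 markers were called higher than in E13.5 MM, with a median log2 fold change of 0.97. There Ccl2 had -0.12 (adjusted p = 0.645) and Ccl7 1.05 (adjusted p = 0.0257). In FP 11 were also higher than in VM, where Ccl2 had 0.44 (adjusted p = 0.0812) and Ccl7 1.41 (adjusted p = 0.00363). Ccl2 was called lower in FP than in E16.5 MM, where no marker was called and Ccl7 was not called either (-0.38, adjusted p = 0.494). Between E13.5 MM and VM, Ccl7 had 0.36 (adjusted p = 0.645). The part of these cells in the levels of Ccl2, Ccl7 and Ccl11 was not tested.

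**Figure D2:**
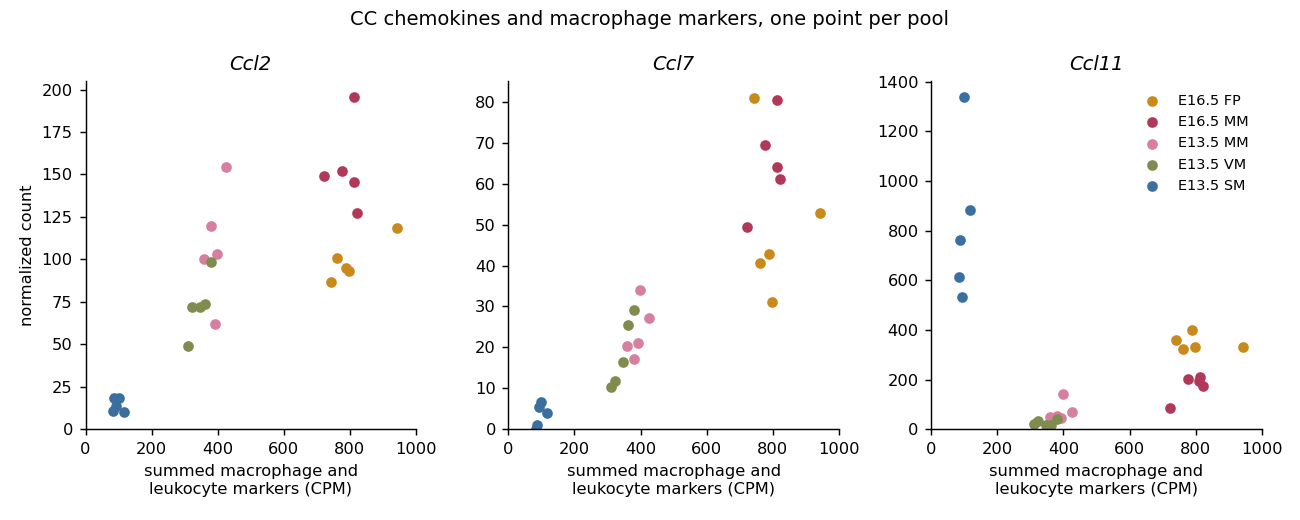
Normalized counts of Ccl2, Ccl7 and Ccl11 against the summed level of 12 macrophage and leukocyte markers in CPM, with 1 point per pool, coloured by tissue. The SM pools, at 82.5 to 116 CPM of markers, are lowest for Ccl2 and Ccl7 and highest for Ccl11.

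Cx3cl1 (chr8:94772009-94782427), the membrane-anchored member, was nearly even over the tissues and passed the call in 0 of 10 comparisons. Its normalized counts ran from 59.0 to 76.5 in FP, 67.1 to 128 in E16.5 MM, 57.1 to 75.7 for E13.5 MM, 68.5 to 86.0 in VM and 76.5 to 110.2 in SM. Fold changes under the threshold of 0.58 with an adjusted p under 0.05 were found in 4 comparisons. These were FP against E16.5 MM (-0.51, adjusted p = 0.0154), FP against SM (-0.46, adjusted p = 0.0141), E16.5 MM against E13.5 MM (0.56, adjusted p = 0.006) and E13.5 MM against SM (-0.50, adjusted p = 0.00891). The fold change of E16.5 MM against E13.5 MM lay close to the threshold. It was called by the Wald test of DESeq2 (0.60), with the size factors of DESeq2 (0.59), in a fit of only these tissues (0.58), and without replicate 2 (0.68) or 3 (0.61) of E16.5 MM or replicate 1 (0.61) or 2 (0.60) of E13.5 MM. The difference between FP and E16.5 MM was called without replicate 2 of E16.5 MM (-0.63).

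Cxcl1 (chr5:90891241-90893115), a neutrophil attractant, was the lowest of the 8 genes per length in 4 of the 5 tissues. It ran from 9.50 to 16.1 normalized counts in FP, 9.06 to 50.4 in E16.5 MM, 4.69 to 16.6 for E13.5 MM, 0 to 6.45 in VM and 6.95 to 22.0 in SM. No mean reached 50, so Cxcl1 could pass the call in none of the 10 comparisons. Adjusted p-values were under 0.05 in 4 of them, the lowest for E16.5 MM against VM (2.76 ± 0.53, adjusted p = 0.000101), and its highest pools were replicates 1 and 4 of E16.5 MM at 50.4 and 42.7. Immediate early and heat shock genes, which respond to handling and tissue digestion, moved in the same direction between E16.5 MM and VM. Of 18 of them, 15 were called higher in E16.5 MM than in VM and none lower, and their median log2 fold change was 1.16 against 0.02 over all genes tested, of which 13.7% were called higher and 9.55% lower. Their summed level was 343 to 529.6 CPM in E16.5 MM against 174 to 219 CPM in VM. It was 274 to 309 CPM in FP, 187 to 232 CPM for E13.5 MM and 353 to 625 CPM in SM. The mean of Cxcl1 was 14.8 in SM and 29.1 in E16.5 MM, a difference that did not pass (edgeR adjusted p = 0.0753). The sums of these tissues overlapped. The largest changes of the list were those of Egr2, Egr1, Fosb and Fos. In E16.5 MM against VM, Egr2 had 4.03 ± 0.41 (adjusted p = 8.39e-09) and Egr1 2.54 ± 0.28 (adjusted p = 1e-07). In VM against SM, Fosb had -2.84 ± 0.52 (adjusted p = 6.9e-05) and Fos -2.73 ± 0.42 (adjusted p = 7.35e-06). The part of the genes of this list in the Cxcl1 levels was not tested.

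Over the 80 tests of a gene in a comparison, 45 were called, and 15 more had an adjusted p under 0.05 without passing the fold or count threshold. Members were chosen with earlier results of these data known, so their calls beside the share of all genes are a description, not a test. E13.5 MM differed from VM, the skin mesenchyme of the same day, in 4 members, all higher (Cxcl12, Cxcl13, Cxcl14 and Ccl11), where 6.45% of all tested genes were called, 3.79% higher and 2.66% lower. E16.5 MM differed from E13.5 MM in 5 members, 4 higher and Cxcl14 lower, where 19.8% of tested genes were called, 12.6% higher and 7.16% lower. Of 11 fibroblast and mesenchyme markers, 7 were called higher there and 0 lower, at a median log2 fold change of 1.14. Their part in these calls was not tested. Within the E16.5 mammary region, 4 members differed between FP and E16.5 MM, with Ccl11 higher and Cxcl13, Cxcl14 and Ccl2 lower (14.1% of tested genes called, 6.78% higher and 7.34% lower). Fibroblast markers were mostly lower in FP, and skeletal muscle and adipocyte markers were higher. The part of these cells in the 4 calls was not tested. E16.5 MM had 5 members higher than VM and 0 lower (23.3% of tested genes called, 13.7% higher and 9.55% lower). FP had 2 members higher and 1 lower than E13.5 MM (25.5% of tested genes called, 14.3% higher and 11.2% lower), and 3 higher and 1 lower than VM (27.4%, with 15.0% higher and 12.4% lower).

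Against SM the same 3 members, Cxcl12, Cxcl13 and Ccl11, were lower in each of the other tissues, which share the SM pools as their comparison. FP had 1 member higher, Ccl2, beside the 3 lower ones (39.5% of tested genes called, 20.2% higher and 19.3% lower). E16.5 MM had 3 higher, Cxcl14, Ccl2 and Ccl7 (35.1%, with 18.5% higher and 16.6% lower). E13.5 MM had 2 higher, Cxcl14 and Ccl2 (30.1%, with 14.5% higher and 15.6% lower), and VM had the same 2 (30.2%, with 14.7% higher and 15.6% lower). The median log2 fold change of the 8 members ran from -1.06 for VM against SM to 1.94 for E16.5 MM against VM, whereas that of all tested genes stayed between -0.009 and 0.042. The peripheral neuron markers, at 299 to 371 CPM, set SM apart in the same way, and their part in the high Cxcl12, Cxcl13 and Ccl11 there was not tested.

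**Figure D3:**
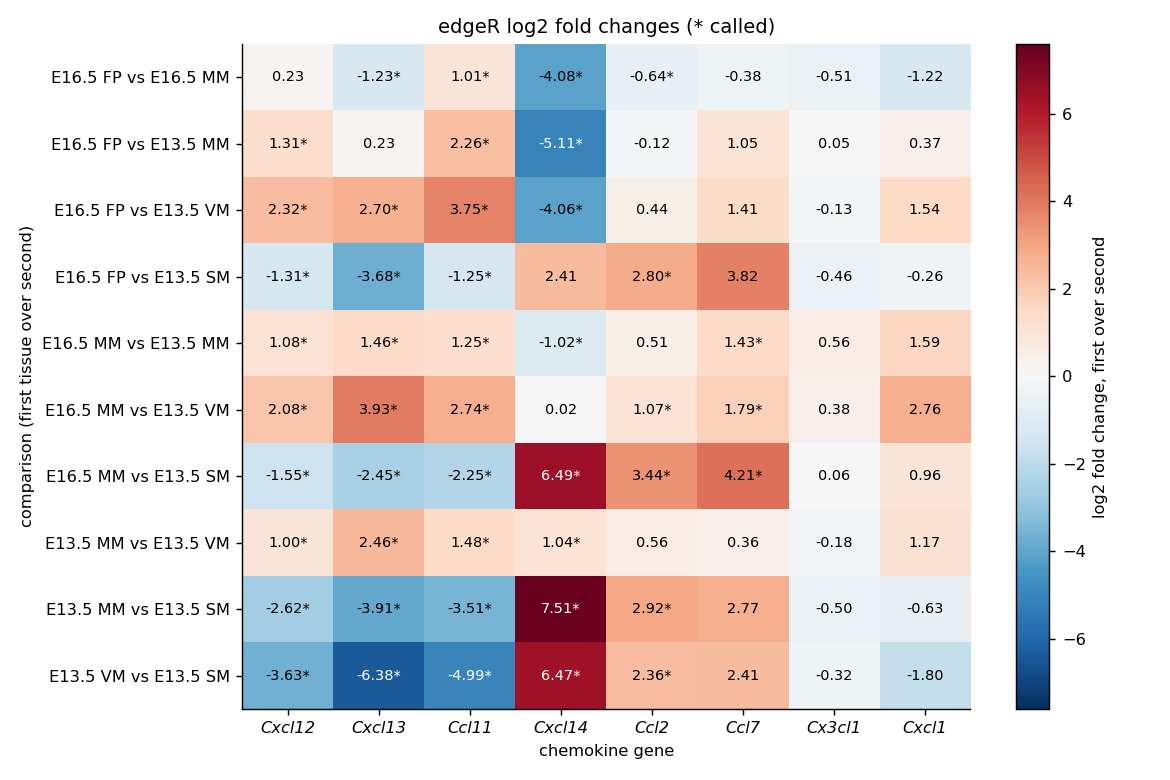
The edgeR log2 fold change of each chemokine gene (columns) in each of 10 comparisons (rows), first tissue over second, with red for higher and blue for lower in the first tissue and a star for a call. The column of Cxcl14 has the opposite sign to those of Cxcl12, Cxcl13 and Ccl11 in every comparison with SM.

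Levels of different genes can be compared only per length, so the normalized counts were divided by the merged exon length in kilobases. The 8 genes summed to 928 ± 53.1 normalized counts per kilobase in FP, 1295 ± 70.1 in E16.5 MM, 1288 ± 83.4 for E13.5 MM, 638 ± 86.8 in VM and 2515 ± 588 in SM (SD, n = 5 each). Cxcl14 made up 68.3% ± 5.94 of this level in E13.5 MM and 66.3% ± 6.50 in VM, but 33.3% ± 6.50 in E16.5 MM, 2.72% ± 1.27 in FP and 0.165% ± 0.192 in SM. Cxcl12 made up 10.8% ± 1.98 in E13.5 MM and 10.9% ± 1.64 in VM, whose sums were 1288 and 638. In FP the level was led by Cxcl12 at 36.7% ± 5.05 and Ccl11 at 34.7% ± 3.10. In SM it was divided between Cxcl12 at 35.2% ± 7.52, Cxcl13 at 33.1% ± 3.68 and Ccl11 at 29.6% ± 4.10. The order of the genes within each tissue was the same when the longest transcript gave the length, but the shares were not computed that way. For Cxcl12 the longest transcript has 5627 bases against 8176 of merged exons, so its shares would be higher. Cxcl13, Cxcl14 and Ccl11 have the same length by both measures.

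**Figure D4:**
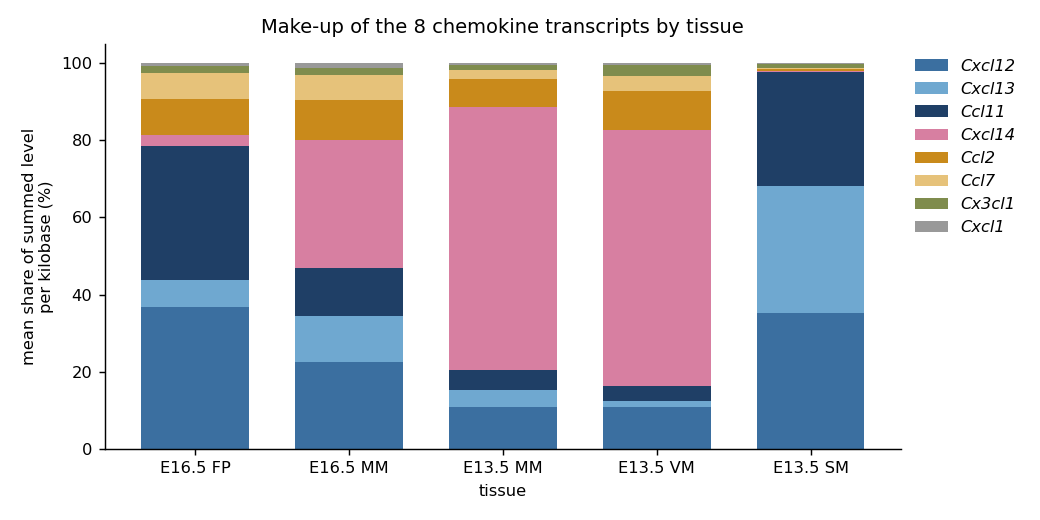
Mean share (%) of each of the 8 genes in their summed level per kilobase in each tissue, with shares stacked to 100 and averaged over 5 pools. Cxcl14 fills 68.3% of the bar in E13.5 MM and 66.3% in VM, and Cxcl12, Cxcl13 and Ccl11 fill nearly all of the bar in SM.

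Of the receptors of these ligands, Cxcr4, Ackr3, Ccr1, Ccr2, Cxcr2 and Cx3cr1 had their lowest mean in SM, and Cxcr5 had its highest there. Of 14 signalling chemokine receptors tested out of 18, 5 were called higher and 0 lower in each of the other 4 tissues than in SM, where 14.5% to 20.2% of all tested genes were called higher and 15.6% to 19.3% lower. Their median log2 fold change was 1.11 in FP, 1.28 in E16.5 MM, 0.90 for E13.5 MM and 0.85 in VM, against -0.007 to 0.037 over all genes tested. Cxcr4, the receptor of Cxcl12, had 361 ± 42.3 normalized counts in FP, 479.6 ± 97.1 in E16.5 MM, 356 ± 40.9 for E13.5 MM, 314 ± 36.4 in VM and 171 ± 18.4 in SM (SD, n = 5 each). It was lowest in SM, where Cxcl12 was highest, with a log2 fold change of 1.48 ± 0.13 in E16.5 MM over SM (adjusted p = 2.08e-10). In the same comparison all 12 macrophage and leukocyte markers and all 9 blood endothelium markers were called higher, at medians of 2.78 and 1.05. The part of these cells in the receptor levels was not tested. Ackr3, which removes Cxcl12 from the surroundings of cells, had 390.3 ± 35.3 in FP, 484 ± 106 in E16.5 MM, 1014 ± 104 for E13.5 MM, 802 ± 70.7 in VM and 276 ± 18.7 in SM. It was higher in E13.5 MM than in SM by 1.88 ± 0.12 (adjusted p = 5.83e-13) and lower in E16.5 MM relative to E13.5 MM by a log2 fold change of -1.07 ± 0.11 (adjusted p = 3.45e-08), while Cxcl12 rose between these stages. Ackr3 and Cxcl12 therefore stood in opposite order at the stages E16.5 and E13.5 of MM.

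Ccr1 and Ccr2, receptors of monocytes and macrophages, had 578 ± 48.7 and 760.3 ± 219.8 normalized counts in FP, 631 ± 63.4 and 790.4 ± 61.2 in E16.5 MM, 328 ± 54.4 and 392 ± 60.4 for E13.5 MM, 275 ± 23.8 and 390.5 ± 43.7 in VM, and 70.3 ± 19.2 and 133 ± 30 in SM. Both were called higher in E16.5 MM relative to E13.5 MM, by 0.94 ± 0.13 and 1.01 ± 0.16 (adjusted p = 2.43e-06 and 1.14e-05), and in E16.5 MM than in SM, by 3.16 ± 0.15 and 2.57 ± 0.17 (adjusted p = 1.62e-15 and 1.57e-12). Macrophage markers moved with them and their part was not tested. Cx3cr1, the receptor of Cx3cl1, was between 866 ± 107 and 1111 ± 20.5 in the first 4 tissues and 276 ± 24.8 in SM, although Cx3cl1 itself passed the call in no comparison. Cxcr2, the receptor of Cxcl1, had means of 404 to 566 in those tissues and 239.8 ± 24.9 in SM. The receptors Cxcr5 and Ccr3, which bind Cxcl13 and Ccl11, were low, with means of at most 11.4 and 12.4 in any tissue. The atypical receptors Ackr1 and Ackr2 had means of at most 37.3 and 22.3, and Ackr4, a scavenger of other CC ligands, was higher in VM than in SM by 4.32 ± 0.50 (adjusted p = 4.3e-08).

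**Figure D5:**
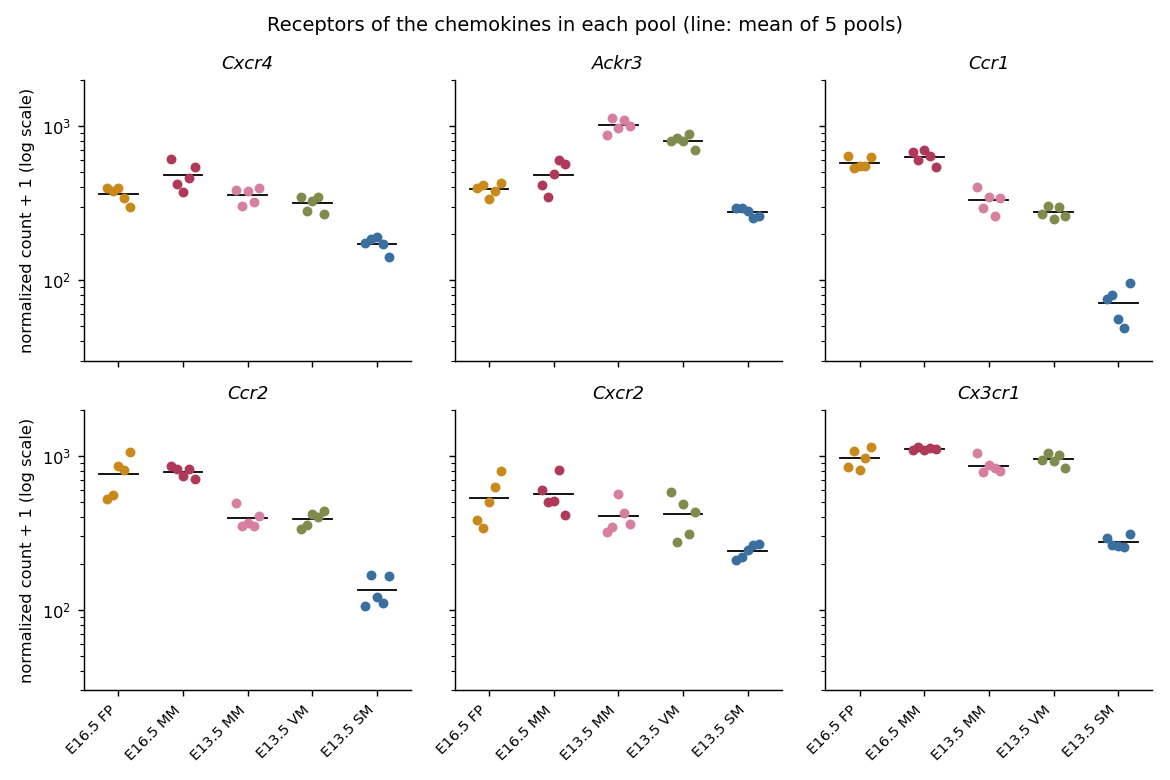
Normalized count + 1 on a log axis of 6 receptors that bind the chemokines, with 1 point per pool and a line at the mean of the 5 pools of a tissue. SM has the lowest mean in each panel, and Ackr3 peaks in E13.5 MM with a mean of 1014. Cxcr5, which had its highest mean in SM, and Ccr3, Ackr1 and Ackr2 are not shown.

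Of 29 other chemokine ligands, 16 were tested. In E16.5 MM 7 were higher and 1 lower than E13.5 MM, with a median log2 fold change of 1.04 against 0.014 over all genes tested, of which 12.6% were called higher and 7.16% lower. Macrophage and leukocyte markers moved in the same comparison, with 11 of 12 called higher at a median of 1.01, and their part was not tested. Between E13.5 MM and VM 0 were called, with a median of 0.44 against -0.009, and 5 of the 16 had an unadjusted p under 0.05 in edgeR while DESeq2 called 0. Cxcl5, a relative of Cxcl1, was the ligand with the largest change. It had 1.79 ± 1.65 normalized counts in FP, 20 ± 10 in E16.5 MM, 3.00 ± 2.29 for E13.5 MM, 0.907 ± 1.63 in VM and 207 ± 33.6 in SM, and was lower in VM than in SM by a log2 fold change of -7.62 ± 0.67 (adjusted p = 4.17e-10). Ccl24, Pf4 and Ccl6, ligands made by macrophages among other cells, were called higher in FP than in SM by 6.09 ± 0.34, 3.89 ± 0.13 and 3.46 ± 0.29 (adjusted p = 3.48e-14, 3.84e-18 and 1.22e-10).

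Proteases that trim chemokines differed strongly between the tissues. Dpp4, a serine peptidase that inactivates Cxcl12 and Ccl11, had 1623 ± 165 normalized counts in FP, 1096 ± 232 in E16.5 MM, 84.4 ± 28.0 for E13.5 MM, 50.9 ± 16.9 in VM and 116 ± 24.3 in SM. It was 32.0-fold higher in FP than in VM (5.0 ± 0.23, adjusted p = 2.91e-15). Fap, its close relative, had 4249 ± 268 in FP, 2145 ± 314 in E16.5 MM, 813 ± 174 for E13.5 MM, 1119.5 ± 272 in VM and 7757 ± 973 in SM. Fap was thus highest in the tissue with the highest Cxcl12, Cxcl13 and Ccl11, with a log2 fold change of -3.26 ± 0.16 in E13.5 MM against SM (adjusted p = 6.29e-15). Of the matrix metalloproteases, Mmp9 was lower (-2.19 ± 0.27, adjusted p = 1.37e-07) and Mmp2 higher (1.74 ± 0.09, adjusted p = 4.77e-15) in E16.5 MM than in SM. These proteases come from a list of 12 genes that process or present chemokines. Of that list, Ext1, Ndst1, Hs6st1, Sdc1, Sdc4 and Gpc3 are not proteases. Of the 12 genes, 2 were called higher and 4 lower in E13.5 MM than in SM. There, 14.5% of all tested genes were called higher and 15.6% lower. The median log2 fold change was -0.36 for the list against 0.032 over all genes tested.

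Inflammatory genes were mostly higher in E16.5 MM than in SM. Of 19 NF-kappaB and inflammatory response genes tested out of 23, 12 were called higher and 1 lower in that comparison, with a median log2 fold change of 1.23 against -0.007 over all genes tested, of which 18.5% were called higher and 16.6% lower. In the same comparison Cxcl12, Cxcl13 and Ccl11 were lower. All 12 macrophage and leukocyte markers and all 6 mast cell markers were called higher there, at medians of 2.78 and 10.5. The part of these cells in the inflammatory genes was not tested. The largest changes of the list were those of Il1rl1, the receptor of Il33, and Il33 itself. Il1rl1 was 79.2-fold higher in FP than in SM (6.31 ± 0.25, adjusted p = 3.83e-16), and Il33 was 64.6-fold higher in VM than in SM (6.01 ± 0.39, adjusted p = 6.95e-12). Mast cell markers, whose cells carry Il1rl1, were 1629 to 3788 CPM in FP and 0.97 to 2.0 CPM in SM, where Tpsb2 was at 0, and their part was not tested. The cytokines Lif and Tnf were higher in FP than in SM by 4.19 ± 0.44 and 3.53 ± 0.40 (adjusted p = 5.24e-09 and 1.93e-08).

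The members were compared with each other by Pearson's r of log2 CPM over the 25 pools, which share tissues and so are described without a test. The r was 0.946 between Cxcl12 and Ccl11, 0.899 between Cxcl12 and Cxcl13, and 0.859 between Cxcl13 and Ccl11. That between the neighbours Ccl2 and Ccl7 was 0.895, whereas that of Ccl11, which lies on the same stretch of chromosome 11, was -0.468 with Ccl2 and -0.231 with Ccl7. Cxcl14 had an r of -0.811 with Cxcl12, -0.803 with Ccl11 and -0.631 with Cxcl13. By this measure genes of different class and chromosome moved together, and adjacent genes of 1 class did not all do so.

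Among tested genes with a mean of at least 100, those with the highest r to Cxcl12 were Fgf10 (0.992), a mesenchymal growth factor of branching glands, Fam129a (0.984) and Ntrk3 (0.978), a neurotrophin receptor. For Cxcl13 they were Pdgfd (0.965), Brinp3 (0.963) and Cnrip1 (0.957), and for Ccl11 Dhrs3 (0.980), an enzyme of retinoid metabolism, Plat (0.969) and Cited2 (0.965). Cxcl14 was most like Apcdd1 (0.963), an inhibitor of Wnt signals, Rspo1 (0.962), which enhances them, and Irx2 (0.959). Ccl2 was most like Fas (0.964), Gpx7 (0.962) and P2rx7 (0.962). Ccl7 was most like Tlr7 (0.966), Ccr1 (0.964) and Ctsc (0.952), all expressed by myeloid cells among others. Cxcl1 had weaker likeness, to Cfap74 (0.814), the immediate early gene Egr1 (0.794) and Gem (0.791), and so had Cx3cl1, to Rhbdl3 (0.776), Cep170b (0.752) and Akna (0.729). With Spearman's rho in place of r, at most 1 of the 3 genes stayed among the top 3 of any member.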

How the data were processed

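The deposited values are estimated counts per gene that the authors made with Salmon 0.99.0 on mm10, after FastQC 0.11.8, MultiQC 1.9, Trimmomatic 0.39 and SortMeRNA, and they used DESeq2 for their own calls. Annotation release and strand use: not given in the sources used here. As deposited, counts are whole numbers, so no rounding was needed. Symbols and coordinates came from GENCODE M21 (GRCm38), and 375 of 35880 genes without a symbol held 0.0805% of counts.

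Counts were scaled with TMM and fitted by the quasi-likelihood test of edgeR 4.0.16 (R 4.3.3) over all 25 pools, with 1 mean per tissue, no covariate, 20 residual degrees of freedom and a common dispersion of 0.0433. Benjamini-Hochberg adjustment was over 17657 genes. Genes were called at an adjusted p below 0.05 when the log2 fold change reached 0.58 in either direction and the higher of the 2 tissues averaged over 50 normalized counts. Standard errors were obtained as the log2 fold change over the root of the F statistic. The log2 CPM used a prior count of 2. The fit was tested on simulated data.

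Named are the 8 members, the receptors that bind them, up to 4 called genes per list with the largest change, and 3 genes most like each member. Cell type markers are named where they move with a member. Members and lists were chosen with earlier results of these data known. Ccl19 and Ccl21a each have 2 identifiers, so their counts are uncertain. Python 3.11.15 with pandas 2.3.3 and matplotlib 3.10.9 made the tables and plots. Alternatives were the Wald test and size factors of DESeq2 1.42.0, no filter, fits of only the compared tissues, the replicate number as a block, each pool left out, another count threshold, library totals, transcript length and Spearman's rho.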

Additional observations from a re-analysis of the deposited data

Results flagged for a closer look

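Replicate 3 of E13.5 MM had 142 normalized counts of Ccl11, against 44.1 to 71.1 in the other 4 pools of that tissue. Its gap to the nearest pool was 0.725 of the range of the group, above the limit of 0.71 for 5 samples. This was 1 of 40 groups of 5 pools examined, and chance flags about 1 in 20 groups, or 2 of 40.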

How the results depend on the processing

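Of the 80 tests of a member in a comparison, 63 kept their call under every alternative run and 17 did not under at least 1, and 0 changed sign with a call. With the count threshold set on the average of the compared tissues, 7 calls were lost, more than under any other alternative. These were Cxcl13 and Ccl11 between E13.5 MM and VM, where 2 members in place of 4 were called, Cxcl13 for FP against VM, Ccl2 for VM against SM, and Ccl7 for E16.5 MM against E13.5 MM, VM and SM. The Wald test of DESeq2 made 1 call more and 1 fewer, its size factors made 4 more, and a fit of only the compared tissues made 1 more. No expression filter and the replicate block changed 0 calls. With the replicate block the members called were, for example, 4 between E13.5 MM and VM. The replicate numbers gave no clear sign of pairing the pools. Over 50 pairs with the same number, the correlation of deviations ran from -0.374 to 0.289, with 11 pairs over 0.1. Its median was 0.017, against 0.002 for different numbers, and 5 of 25 pools correlated best with their own number. Which pools share a litter is not given, so pairing by litter under other numbers was not tested.

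With 1 pool left out, the members called numbered 3 to 5 for FP against E16.5 MM, 3 to 4 for FP against E13.5 MM, 4 to 5 for FP against VM, 4 to 6 for FP against SM, 5 to 7 for E16.5 MM against E13.5 MM and 4 to 5 for E13.5 MM against VM. They stayed at 5 for E16.5 MM against VM, 6 for E16.5 MM against SM, and 5 for E13.5 MM and for VM against SM. Cxcl1 has no value in fits of only VM and another tissue, as the filter removed it there. Plain library totals moved 0 of 40 means by more than 1 SD. The low counts of Cxcl1 and of Cxcl14 and Ccl7 in SM limit their precision.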
